A study of Mus musculus with 3 samples.

Results

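The genes of the cytosolic ribosomal proteins were described across the 3 liver libraries of a study of zinc oxide nanoparticles. They were chosen by name: every entry called Rpl or Rps followed by a number, with or without a closing a, x or l, together with Rplp0, Rplp1, Rplp2 and Rpsa. This rule took 82 of 49492 entries, 50 of them for the large ribosomal subunit and 32 for the small one. The rule itself uses no measured value. CD-1 mice, an outbred laboratory strain, were given ZnO NPs by mouth at 25 mg/kg body weight each day for 8 weeks or for 12 weeks, and control mice were given PBS. Total RNA of the liver was sequenced as 1 library per group, so the differences below rest on single libraries and carry no p-value. The labels state neither sex, age nor the number of animals behind a library, nor when the control livers were taken. The study's title concerns insulin resistance brought on by the particles.

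A ribosome joins a small subunit, which reads the mRNA, to a large subunit, which links the amino acids, and each is built of ribosomal RNA and many small basic proteins. The protein genes are scattered over the genome, yet their mRNAs are made in similar amounts, and most begin with a run of pyrimidines, the TOP element, through which the kinase mTOR and the binding protein Larp1 control their translation and stability. Nutrients, insulin and growth signals act on this control in liver.

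The deposited estimated counts summed to 14258770 in the 8-week library, 13263211 in the 12-week library and 13614979 in the control library. At this depth 3 counts were worth 0.209, 0.227 and 0.221 CPM (counts scaled to library size by the TMM method) in the 8-week, 12-week and control libraries. Changes are log2 ratios of CPM + 1 over the 14585 genes that reached 1 CPM in at least 1 library, and each interval is an exact 95% interval for a ratio of counts, covering counting error alone. The 12 hepatocyte markers held 1018645 counts at 8 weeks, 949188 at 12 weeks and 786223 in the control. Of these counts, Alb alone held 455535 at 8 weeks, 412810 at 12 weeks and 296431 in the control. The 12 markers were split. At least 1.2-fold higher were 6 at 8 weeks and 8 at 12 weeks, against 24.5% and 23.4% of all genes kept. As much lower were 2 at 8 weeks and 2 at 12 weeks, against 24.4% and 22.5%. The libraries also differed in the RNA of markers of other cells. All 14 Kupffer cell markers were at least 2-fold higher at 8 weeks and 13 of 14 at 12 weeks. The background at 2-fold was 4.15% and 3.11% of all genes kept. The Kupffer cell markers had 6201, 4404 and 1435 summed counts at 8 weeks, at 12 weeks and in the control. The 10 skeletal muscle markers summed to 2880 counts at 8 weeks, 21 at 12 weeks and 32 in the control, where 5 of them were at 0. Of 10 endothelial markers, 8 at 8 weeks and 5 at 12 weeks were at least 1.2-fold higher (median log2 ratios 0.38 and 0.21), with 5737, 4523 and 4239 summed counts at 8 weeks, at 12 weeks and in the control. Of 10 stellate cell markers, 7 were as much higher at 8 weeks and 7 at 12 weeks (medians 0.40 and 0.40). Their summed counts were 4171 at 8 weeks, 4059 at 12 weeks and 3365 in the control. For the endothelial and stellate lists the background at 1.2-fold was the same 24.5% and 23.4% of all genes kept. Erythroid markers summed to 2215 counts at 8 weeks, 1766 at 12 weeks and 1571 in the control, but single genes differed. In that order of libraries, Hba-a1 had 658, 638 and 422 counts, Hbb-bs 867, 793 and 551, and Alas2 496, 200 and 487. Lymphocyte markers summed to 290 counts at 8 weeks, 273 at 12 weeks and 144 in the control. Of these, Ptprc, which is not particular to lymphocytes, alone held 235, 223 and 86. Every other gene of that list had 16 counts or fewer in each library, so the sums follow Ptprc. Neutrophil markers summed to 51 counts at 8 weeks, 104 at 12 weeks and 30 in the control. The part of these cells in the values below was not tested.

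Of the 82 genes, 78 passed the filter of 1 CPM, 46 of the large subunit and 32 of the small. Together the 82 made up 0.796% of the counts at 8 weeks (exact interval 0.792% to 0.801%), 0.700% at 12 weeks (0.696% to 0.704%) and 0.818% in the control (0.813% to 0.822%). The 12-week library was the lowest of the 3. After scaling, the sum at 12 weeks was 0.854 of the control (0.847 to 0.862), and at 8 weeks it was 0.966 (0.958 to 0.974). In RNA from whole tissue, fewer cells that express a gene cannot be told apart from less of its RNA per cell.

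At 12 weeks the shift was spread over nearly the whole family. Of the 78 genes, 73 had a log2 ratio below 0 against the control, where 51% of all genes kept, and 55% of those with a mean of at least 50 CPM, lay below 0. The median was -0.27, against -0.01 for all genes kept, and the middle 50% of the members ran from -0.34 to -0.15. At least 1.2-fold lower were 41 members (52.6%), against 22.5% of all genes kept and 21.8% of those at 50 CPM or more. At least 1.2-fold higher were 2 members, against a background of 23.4%, or 17.4% at 50 CPM or more. The counting interval lay wholly below 0 for 59 members, against 22.4% of all genes kept and 40.5% of those at 50 CPM or more, and wholly above 0 for 2, against 21%. No member was 2-fold higher or lower at 12 weeks, where 3.11% and 1.34% of all genes kept were.

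At 8 weeks the family stood close to the control. Below 0 were 55 of 78 members, against 51.6% of all genes kept and 51.7% at 50 CPM or more, and the median was -0.05 against -0.02 for all genes. The members that were 1.2-fold lower numbered 7, against 24.4% of all genes and 22% at 50 CPM or more. Those 1.2-fold higher numbered 4, against 24.5% and 19.5%. Intervals wholly below 0 were found for 24 members, against 24.2% of all genes and 38.9% at 50 CPM or more, and intervals wholly above 0 for 10, against 23.6%. No member passed 2-fold at 8 weeks, against 4.15% of all genes higher and 2.1% lower, and Rps2 lay just under that line.

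The 12-week library was also below the 8-week library, with 74 of 78 members under 0 and a median of -0.20 against 0.00 for all genes. The background under 0 was 50.1%, or 53.4% at 50 CPM or more. The interval lay wholly below 0 for 53 members, against 19.2% and 37%, and wholly above for 1, Rpl30, against 19%. The number at least 1.2-fold lower was 22, against 19.1% of all genes and 15.6% at 50 CPM or more, and the number as much higher was 0, against 19.9% and 14.7%. None was 2-fold higher or lower, where 1.28% and 1.23% of all genes were. The 8-week and 12-week comparisons share their only control, so the libraries' own values are given for each gene below.

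**Figure D1:**
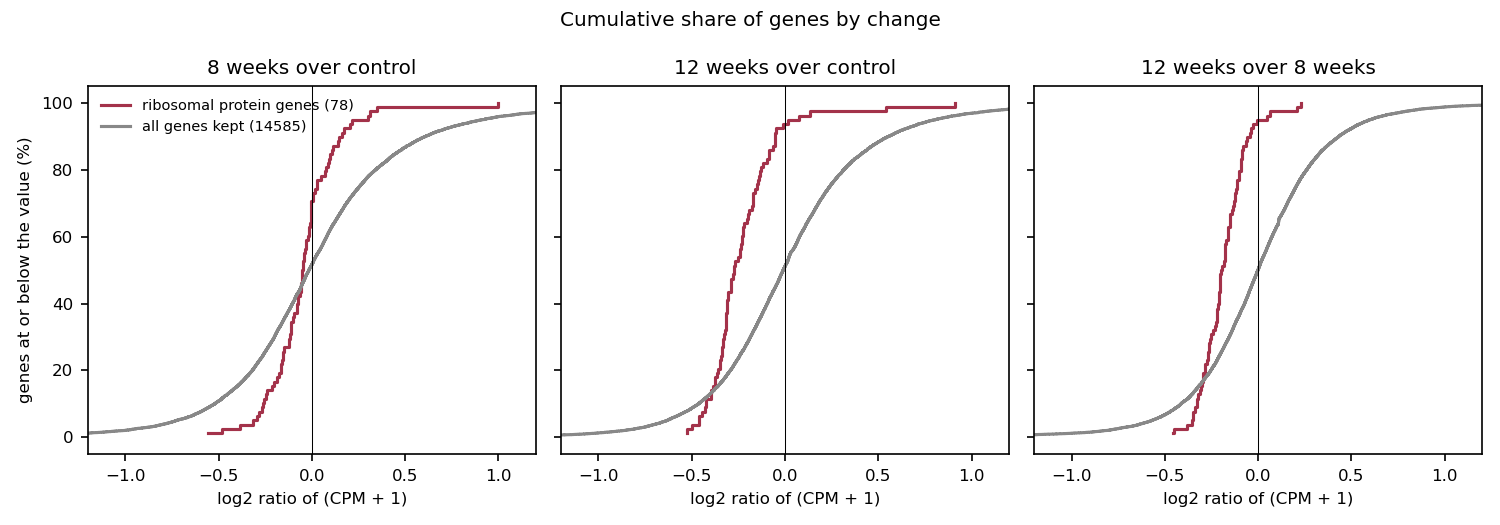
Cumulative share of genes (%) against the log2 ratio of CPM + 1 for 8 weeks over control, 12 weeks over control and 12 weeks over 8 weeks, for the 78 ribosomal protein genes and for all 14585 genes kept. In the 12-week panels the curve of the ribosomal protein genes lies to the left of 0 for 73 and 74 of the 78, and its range is narrower than that of all genes.

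Both subunits took part. The large subunit had a median log2 ratio of -0.04 at 8 weeks and -0.26 at 12 weeks, and the small subunit had -0.06 at 8 weeks and -0.29 at 12 weeks. Summed counts of the large subunit at 12 weeks were 0.864 of the control (0.855 to 0.874) and those of the small subunit 0.838 (0.826 to 0.850). At 12 weeks 43 of 46 large subunit genes and 30 of 32 small subunit genes were below 0. The 8-week median of the large subunit was 0.00 when the 10 most counted genes were left out of the totals.

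**Figure D2:**
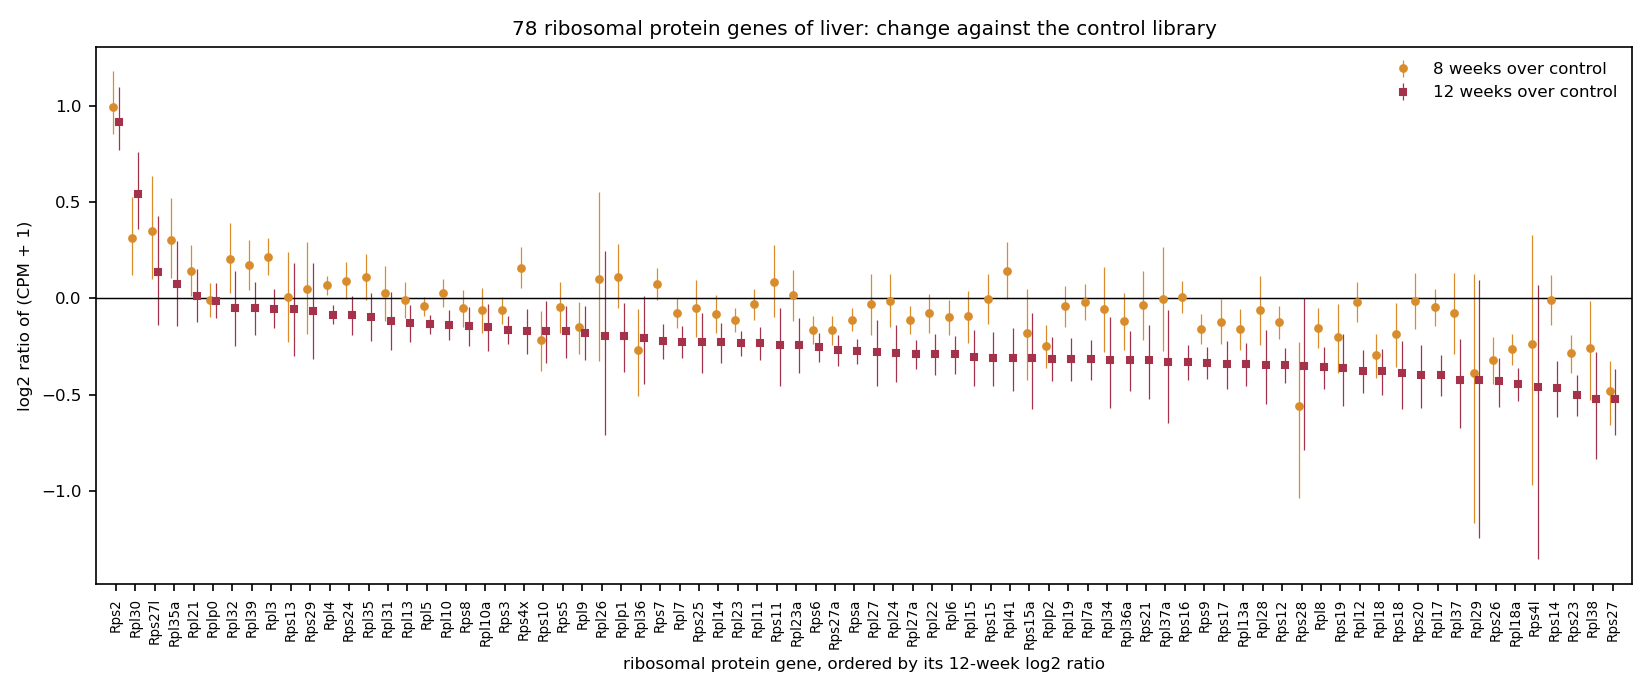
Log2 ratio of CPM + 1 against the control for each of the 78 ribosomal protein genes, at 8 weeks (circles) and 12 weeks (squares), ordered by the 12-week value; bars are exact 95% intervals that cover counting error alone. At 12 weeks 73 genes lie below 0, and Rps2 and Rpl30 at the left end are the 2 with an interval above 0.

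Several small subunit genes were lower than the control in both treated libraries. Rps23, which sits at the decoding centre, had 109 CPM at 8 weeks, 94.0 at 12 weeks and 133 in the control. Its log2 ratio was -0.29 (-0.39 to -0.19) at 8 weeks and -0.50 (-0.61 to -0.40) at 12 weeks. Both treated libraries lay below the control, the 12-week one further. Rps27, a zinc-binding protein of the small subunit, had 36.8 CPM at 8 weeks, 35.6 at 12 weeks and 51.7 in the control, with log2 ratios of -0.48 (-0.66 to -0.33) and -0.52 (-0.71 to -0.37) at 8 and 12 weeks. It was the lowest member at 12 weeks, and its treated libraries differed by less than their counting error. Rps26, which lies where the mRNA leaves the ribosome, had 71.3 CPM at 8 weeks, 65.8 at 12 weeks and 89.1 in the control, with log2 ratios of -0.32 at 8 weeks and -0.43 at 12 weeks. Its pseudogene Rps26-ps1 had 114 counts at 8 weeks, 89 at 12 weeks and 12 in the control, against 1022, 872 and 1209 in Rps26 itself, and with its copies added Rps26 stood at -0.18 and -0.30 at 8 and 12 weeks.

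Other small subunit genes were near the control at 8 weeks and below it at 12 weeks. Rps14, whose loss of 1 copy is tied to the anaemia of a human myelodysplastic syndrome, had 1003 counts at 8 weeks, 672 at 12 weeks and 954 in the control. Its log2 ratio was -0.01 (-0.14 to 0.12) at 8 weeks, -0.46 (-0.62 to -0.33) at 12 weeks and -0.46 between 12 and 8 weeks, the lowest of the family in that comparison. Rps20, a protein of the head of the small subunit, had 54.2 CPM at 8 weeks, 41.3 at 12 weeks and 54.7 in the control, and a ratio of -0.38 (-0.55 to -0.23) between 12 and 8 weeks. In both genes the 12-week library alone was low. Rps28 had a different order of libraries, with 6.14 CPM at 8 weeks, 7.25 at 12 weeks and 9.51 in the control, and it was the lowest member at 8 weeks (-0.56, interval -1.04 to -0.23). Its 88, 96 and 129 counts at 8 weeks, at 12 weeks and in the control are few, and the opposite-strand gene Kank3 at the same place had 94, 106 and 101, so the value of either is uncertain. Rps10, which is marked with ubiquitin when ribosomes collide, had 43.8 CPM at 8 weeks, 45.3 at 12 weeks and 51.1 in the control, and its ratio between 12 and 8 weeks (0.05, -0.12 to 0.21) was one of 4 above 0. Rps4l had only 39 counts at 8 weeks, 29 at 12 weeks and 46 in the control, and its intervals included 0.

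The small subunit genes with the most counts lay nearer the middle of the family. Rpsa, a protein of the small subunit first known as a laminin receptor, had 307 CPM at 8 weeks, 274 at 12 weeks and 331 in the control (log2 ratio -0.11 at 8 weeks and -0.27 at 12 weeks). Rps6, the ribosomal protein phosphorylated by the S6 kinases below mTOR, had 216 CPM at 8 weeks, 203 at 12 weeks and 242 in the control (log2 ratios -0.16 and -0.25 at 8 and 12 weeks). Rps3, which lies at the entry of the mRNA channel, had 231 CPM at 8 weeks, 215 at 12 weeks and 241 in the control (log2 ratios -0.06 and -0.16 at 8 and 12 weeks). In all 3 the order of the libraries was the same, with the control highest and the 12-week library lowest. Rps27a, made as a fusion with ubiquitin, had 190 CPM at 8 weeks, 177 at 12 weeks and 213 in the control (log2 ratios -0.16 and -0.27 at 8 and 12 weeks).

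In the large subunit the lowest gene at 12 weeks was Rpl38, which in mice is needed for the translation of some Hox mRNAs. It had 16.5 CPM at 8 weeks, 13.6 at 12 weeks and 19.97 in the control, with log2 ratios of -0.26 (-0.53 to -0.02) at 8 weeks and -0.52 (-0.84 to -0.28) at 12 weeks. Rpl18 had 80.9 CPM at 8 weeks, 76.3 at 12 weeks and 99.4 in the control (log2 ratio -0.29 at 8 weeks and -0.38 at 12 weeks), but the opposite-strand gene Sphk2 shares its place and had 58.2% as many control counts. Rpl41, the smallest protein of the ribosome, had 57.6 CPM at 8 weeks, 41.8 at 12 weeks and 52.03 in the control, and -0.45 (-0.62 to -0.30) between 12 and 8 weeks. Its 8-week library was the highest and its 12-week library the lowest. Rpl12, which helps to form the base of the stalk that recruits elongation factors, had 112 CPM at 8 weeks, 87.2 at 12 weeks and 113 in the control, and -0.36 (-0.47 to -0.25) between 12 and 8 weeks. Rpl17, near the exit of the peptide tunnel, had 123 CPM at 8 weeks, 96.0 at 12 weeks and 127 in the control, and -0.35 between 12 and 8 weeks. For both, the 8-week library was within counting error of the control and the 12-week library was below it. Rpl36 had 21.1 CPM at 8 weeks, 22.1 at 12 weeks and 25.6 in the control, and its 12 over 8 week ratio of 0.06 had an interval of -0.17 to 0.30.

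The members with the most counts, Rpl5, Rpl4 and Rpl23, belong to the large subunit. Rpl5 had 506 CPM at 8 weeks, 475 at 12 weeks and 521 in the control, and Rpl11 had 178 CPM at 8 weeks, 154 at 12 weeks and 182 in the control. These proteins bind the smallest ribosomal RNA of the large subunit, and when ribosome assembly fails they bind and inhibit Mdm2, the ligase that destroys p53. Their log2 ratios were -0.04 and -0.03 at 8 weeks and -0.13 (-0.18 to -0.08) and -0.23 (-0.32 to -0.15) at 12 weeks, for Rpl5 and for Rpl11. Rpl23, another protein that can bind Mdm2, had 310 CPM at 8 weeks, 285 at 12 weeks and 335 in the control (log2 ratio -0.11 at 8 weeks and -0.23 at 12 weeks). Rpl4, which reaches into the peptide tunnel, had 499 CPM at 8 weeks, 450 at 12 weeks and 476 in the control, so that the 8-week library was the highest (0.07, 0.02 to 0.12) and the 12-week library the lowest (-0.08, -0.13 to -0.03). Rpl3, a protein of the catalytic centre, showed the same order with 141 CPM at 8 weeks, 117 at 12 weeks and 121 in the control, and a log2 ratio of 0.22 (0.12 to 0.31) at 8 weeks and -0.05 (-0.15 to 0.05) at 12 weeks.

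The stalk proteins, which hold the elongation factors on the large subunit, differed among themselves. Rplp0, the base of the stalk, had 148 CPM at 8 weeks, 147 at 12 weeks and 148 in the control. Rplp1 had 45.0 CPM at 8 weeks, 36.1 at 12 weeks and 41.5 in the control, and Rplp2 had 88.0 CPM at 8 weeks, 84.1 at 12 weeks and 105 in the control. At 12 weeks their log2 ratios were -0.01 (-0.10 to 0.08) for Rplp0, -0.20 (-0.38 to -0.02) for Rplp1 and -0.31 (-0.43 to -0.20) for Rplp2. The level of Rplp0, a common reference gene in quantitative PCR, was even over the libraries in its own entry, whereas its pseudogene Gm8730, with 98.7% of its coding bases in common, had 474 counts at 8 weeks, 230 at 12 weeks and 558 in the control. With its copies added, Rplp0 stood at -0.08 at 8 weeks and -0.24 at 12 weeks. The 9 proteins that line the peptide tunnel or its exit had a median of 0.03 at 8 weeks, with 3 of 9 below 0, and -0.19 at 12 weeks, with 9 of 9 below 0. Of 18 genes mutated in Diamond-Blackfan anaemia, a human failure of red cell formation, 11 were below 0 at 8 weeks (median -0.04) and 17 at 12 weeks (median -0.23), Rpl35a being the exception. Both lists are parts of the family. In the whole family, 55 of 78 (70.5%) were below 0 at 8 weeks and 73 of 78 (93.6%) at 12 weeks, with medians of -0.05 and -0.27. Of all genes kept, 51.6% and 51% were below 0 at these times. The anaemia genes thus lay near the family as a whole.

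Tissue-restricted paralogs were hardly measured. Rpl10l and Rpl39l, which serve male germ cells, had 0 counts in every library, which allows up to 0.209, 0.227 and 0.221 CPM at 8 weeks, at 12 weeks and in the control. Rpl3l, which takes the place of Rpl3 in skeletal muscle and heart, had 13 counts at 8 weeks, 2 at 12 weeks and 1 in the control. It was highest in the library that held the skeletal muscle markers, with 2880 counts of them at 8 weeks, 21 at 12 weeks and 32 in the control. Rpl6l had 7, 6 and 6 counts at 8 weeks, at 12 weeks and in the control. These 4 genes are the ones that did not pass the filter. Rps27l, a paralog of Rps27 that p53 induces in human cells, had 19.1 CPM at 8 weeks, 16.4 at 12 weeks and 14.8 in the control, with a log2 ratio of 0.35 (0.10 to 0.64) at 8 weeks and 0.14 (-0.14 to 0.43) at 12 weeks. Its control value was the lowest of the 3, where Rps27 had its highest.

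Set per kilobase of mRNA, the members' levels were far from equal. The median was 102 CPM per kilobase at 8 weeks, 86.5 at 12 weeks and 105 in the control, over 77 genes with an annotated mRNA. Here and below, mRNA length is that of a single annotated coding transcript per gene, which need not be the one expressed in liver. For Rps20 it was 3706 bases with a coding sequence of 357. The part of this choice in the spread of levels was not tested. The lowest in all 3 libraries was Rpl29, with 3.64 CPM per kilobase at 8 weeks, 3.51 at 12 weeks and 5.19 in the control. The highest was Rpl4 at 8 and 12 weeks, with 325 and 292 CPM per kilobase, and Rps27a in the control, with 334. Mouse ribosomal protein genes have many processed pseudogenes, intronless copies made from the mRNA, and counts placed in those entries are not in these levels.

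Pseudogene copies were found by matching the members' coding sequences to annotated pseudogenes at 80% identity or more over at least 50% of the coding length. Copies were found for 76 members in 1306 entries of the files, and they held 0.0823% of counts at 8 weeks, 0.0731% at 12 weeks and 0.0827% in the control. For 54 members, copies held under 5% of the control counts of gene and copies together, and for 16 members 10% or more. In 3 genes most counts lay in the copies. Of the control counts of gene and copies, 93.3% lay in copies for Rpl26, which lines the peptide tunnel, 93.0% for Rpl29, a large subunit protein that mice can live without at the cost of growth, and 88.5% for Rps2, which lies at the mRNA entry. Stretches of the gene and of its most counted copy are shown for these 3, because they show how few bases tell gene and copy apart. Bases that differ are in capitals, sequences run along the coding strand, and positions count from the first base of the start codon.
Rps2 (chr17:24718116-24721929, plus strand), bases 27 to 116: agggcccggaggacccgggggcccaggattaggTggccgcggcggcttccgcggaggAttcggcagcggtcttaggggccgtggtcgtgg
Rps2-ps13 (chrX:52898588-52899469, plus strand), aligned bases: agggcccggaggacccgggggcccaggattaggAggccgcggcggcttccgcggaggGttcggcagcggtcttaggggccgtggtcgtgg
Rpl26 (chr11:68901583-68906989, plus strand), bases 132 to 221: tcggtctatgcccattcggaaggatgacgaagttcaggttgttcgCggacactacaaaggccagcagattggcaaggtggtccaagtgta
Gm15772 (chr5:3236431-3236868, plus strand), aligned bases: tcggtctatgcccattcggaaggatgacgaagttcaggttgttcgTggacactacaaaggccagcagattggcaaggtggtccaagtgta
Rpl29 (chr9:106429454-106431568, plus strand), bases 27 to 116: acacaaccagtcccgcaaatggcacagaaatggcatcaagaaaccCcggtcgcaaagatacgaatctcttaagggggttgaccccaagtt
Gm13841 (chr5:115801677-115802159, minus strand), aligned bases: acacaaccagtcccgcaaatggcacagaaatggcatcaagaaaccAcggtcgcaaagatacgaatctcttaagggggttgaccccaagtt

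Coordinates are those of the deposited files, which match mm10, and the bases are from GENCODE M21 transcripts. Over the whole coding sequence, Rps2 and Rps2-ps13 differ at 7 of 879 bases, Rpl26 and Gm15772 at 2 of 435, and Rpl29 and Gm13841 at 3 of 480. Of all stretches of 50 bases, 65.9% in Rps2, 74.1% in Rpl26 and 65.2% in Rpl29 are identical in gene and copy, so 50 bases from there match gene and copy alike. Most members carried fractional counts: 8 of 82 had whole values in all 3 libraries.

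Rps2 was the member with the highest ratio in its own entry, and its value with the copies added was another. The entry of Rps2 had 989 counts at 8 weeks, 863 at 12 weeks and 463 in the control, or 69.0 CPM at 8 weeks, 65.2 at 12 weeks and 34.1 in the control. Its log2 ratio was 0.995 (0.856 to 1.179) at 8 weeks and 0.91 (0.77 to 1.10) at 12 weeks. Both treated libraries stood well above the control, and at 8 weeks the ratio passed 2-fold (log2 of 1) under each of the other 4 scalings of the libraries. Its copy Rps2-ps13 held 3118 counts at 8 weeks, 2535 at 12 weeks and 2930 in the control. With all copies added, Rps2 had 331 CPM at 8 weeks, 295 at 12 weeks and 297 in the control, and log2 ratios of 0.15 at 8 weeks and -0.01 at 12 weeks.

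Rpl26 and Rpl29 had few counts of their own. Rpl26 had 96 counts at 8 weeks, 70 at 12 weeks and 84 in the control, against 1186, 1014 and 1171 in Gm15772. Rpl29 had 37 counts at 8 weeks, 33 at 12 weeks and 50 in the control, against 303, 278 and 286 in Gm13841. With copies added, the log2 ratios were -0.05 at 8 weeks and -0.17 at 12 weeks for Rpl26, and 0.00 at 8 weeks and -0.09 at 12 weeks for Rpl29. The genes whose own entries were above 0 at 12 weeks had 26.0% to 88.5% of the control counts in copies, except Rps27l with 0%. Rpl30, which in yeast controls the splicing of its own transcript, had 32.7 CPM at 8 weeks, 38.6 at 12 weeks and 26.2 in the control (0.31, 0.12 to 0.53, at 8 weeks and 0.54, 0.36 to 0.76, at 12 weeks), with 26.0% of the control counts in its copies. It was the member with the highest ratio between 12 and 8 weeks (0.23, 0.05 to 0.42). With copies, Rpl30 stood at 0.18 at 8 weeks and 0.23 at 12 weeks. Rpl35a, with 36.2% in copies, had 31.1 CPM at 8 weeks, 26.4 at 12 weeks and 25.0 in the control, and its ratio was 0.30 (0.11 to 0.52) at 8 weeks and 0.07 (-0.14 to 0.30) at 12 weeks, or 0.12 and -0.09 with copies. Rpl21, with 30.8% in copies, had 69.7 CPM at 8 weeks, 63.7 at 12 weeks and 63.0 in the control, and its ratio was 0.14 at 8 weeks and 0.01 (-0.12 to 0.15) at 12 weeks, or 0.03 and -0.11 with copies. With copies added to every member, 76 of 78 were below 0 at 12 weeks, with a median of -0.25, and Rpl30 and Rps27l were the 2 above. The sum of members and copies at 12 weeks was 0.857 of the control (0.850 to 0.864).

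**Figure D3:**
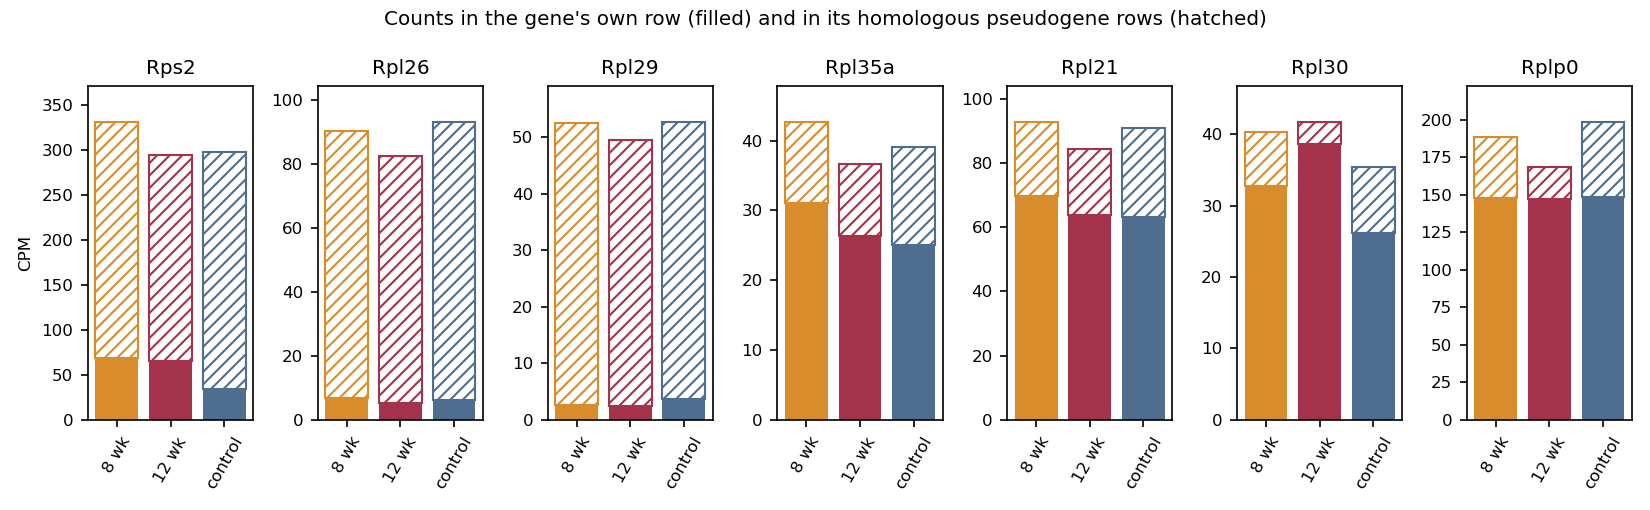
CPM in the gene's own entry (filled) and in its homologous pseudogene entries (hatched) for 7 ribosomal protein genes, in the 8-week, 12-week and control libraries, with a y axis of its own for each gene. The filled bar of Rps2 is higher in both treated libraries, while the full bar is 331, 295 and 297 CPM at 8 weeks, at 12 weeks and in the control.

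Overlapping entries touched fewer members. For 13 members another entry at the same place had at least 10% as many control counts. Rpl13a had 1402 counts at 8 weeks, 1143 at 12 weeks and 1486 in the control, and the same-strand neighbour Flt3l had 1394, 1121 and 1507. The counts of these neighbours were nearly equal in each library, and whether they hold the same reads was not tested. Without these 13 genes the 12-week median of the 65 others was -0.27, with 60 below 0.

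The start of transcription offers a feature that the choice of members did not use. RefSeq promoter windows (GRCm38.p6, 250 bases before to 50 after the start) were matched by symbol for 60 members, 57 of them among those kept. The letters CGGAAG on either strand, the core bound by ETS family factors, were found in 40 of 57 member windows (70.2%), in 30.5% of the windows of other genes kept and in 17.1% of all other genes' windows. CTCTTTC on either strand was found in 28.1% of member windows and 7.2% of those of other genes kept, and CTTTTCC in 15.8% and 7.83%. AAGATGG, a core of the factor YY1 that may overlap CGGAAG, was in 8 of 57 member windows and in 7.23% of those of other genes kept. GGGCGG, the Sp1 box, was in 59.6% and 62.0%, and TATAAA in 8.77% and 7.36%. Of 36 members with a CGGAAG before or no more than 10 bases past the start, 16 have one within 50 bases of the start. The stretch around the site nearest the start is printed for the 4 members with the lowest and the 3 with the highest 12-week ratios among these, as examples of the site in its setting. They were picked for holding it, so they say nothing of how the site relates to the ratios. Rps23 (-0.50 at 12 weeks), Rplp0 (-0.01) and Rpl35a (0.07) have no CGGAAG in their windows. The letters in capitals are CGGAAG or its reverse complement CTTCCG, and each sequence runs in the direction of transcription.
Rps27 (chr3:90213711-90213740, minus strand): agagtagaagacCTTCCGaagatggcgaag
Rpl38 (chr11:114668555-114668584, plus strand): accgtccggaagCGGAAGcctcgttctttc
Rps26 (chr10:128626702-128626731, minus strand): ttaatcttccgcCGGAAGgttaaatagttc
Rpl37 (chr15:5116597-5116626, plus strand): tagtttcctgggCGGAAGcttatccacagg
Rps13 (chr7:116334360-116334389, minus strand): cctcagatgcgaCTTCCGaagagatgttag
Rps27l (chr9:66946084-66946113, plus strand): ccgcctctatccCGGAAGttgctgaggggc
Rps2 (chr17:24719924-24719953, plus strand): tatttatacgtcCTTCCGgctggtgtaggg

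The 12-week log2 ratios of these genes, in the order shown, were -0.52, -0.52, -0.43, -0.42, -0.05, 0.14 and 0.91. A match of letters is a description of the sequence and not a bound site.

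The same libraries were read for the other genes of ribosome supply. The list of 21 further genes with TOP mRNAs, mainly elongation factors and subunits of initiation factors, had 11 below 0 at 8 weeks (median -0.04) and 17 at 12 weeks (median -0.19). Below 0 were 51.6% of all genes kept at 8 weeks and 51% at 12 weeks, so the count at 8 weeks is near that background. The elongation factor Eef1a1, which brings aminoacyl-tRNA to the ribosome, had 2215 CPM at 8 weeks, 1888 at 12 weeks and 2165 in the control (log2 ratio 0.03 at 8 weeks and -0.20 at 12 weeks). The poly(A)-binding protein gene Pabpc1 had 989 CPM at 8 weeks, 998 at 12 weeks and 983 in the control. Of 10 host genes of small nucleolar RNAs, 6 were below 0 at 8 weeks (median -0.19) and 8 at 12 weeks (median -0.21), against 51.6% and 51% of all genes kept, and the median between 12 and 8 weeks was -0.02. By the median alone, these host genes were thus about as low at 8 weeks as at 12 weeks. Single genes differed. Eif4a2, with the most counts of the 10, stood at 0.084 at 8 weeks and -0.255 at 12 weeks. Snhg3 and Snhg6 were above 0 at both times (0.47 and 0.54 at 8 weeks, 0.45 and 0.41 at 12 weeks). The 22 initiation factors had 21 below 0 at 8 weeks (median -0.13) and 16 at 12 weeks (median -0.09), against the same 51.6% and 51%. Among them, Eif4g1 had 687 CPM at 8 weeks, 744 at 12 weeks and 726 in the control.

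Genes that assemble the ribosome had the opposite order of the treated libraries. Of 34 genes of ribosome assembly kept, 27 were below 0 at 8 weeks (median -0.17) and 15 at 12 weeks (median 0.06). The background was 51.6% and 51% of all genes kept. Between 12 and 8 weeks, 8 were below 0, against 50.1% of all genes kept. In that comparison 15 were at least 1.2-fold higher, against 19.9% of all genes kept. The median was 0.19, where that of the ribosomal proteins was -0.20. Ncl, the nucleolar protein nucleolin, had 1129 CPM at 8 weeks, 987 at 12 weeks and 960 in the control, against the trend of its list. Rrp1, a factor of large subunit assembly, had 106 CPM at 8 weeks, 128 at 12 weeks and 134 in the control. The 14 genes of RNA polymerase I and its factors, which transcribe the ribosomal RNA, had medians of -0.20 at 8 weeks and -0.04 at 12 weeks. Ubtf, their upstream binding factor, had 78.6 CPM at 8 weeks, 98.8 at 12 weeks and 92.0 in the control. Among 18 regulators of mTOR and of TOP mRNAs, 1 passed 2-fold: Myc, a transcription factor that drives ribosome production. It had 43 counts at 8 weeks, 109 at 12 weeks and 98 in the control (-1.04 at 8 weeks, 0.17 at 12 weeks and 1.21 between 12 and 8 weeks). Of all genes kept, 2.1% were at least 2-fold lower at 8 weeks and 1.28% at least 2-fold higher between 12 and 8 weeks. Larp1 was not 2-fold changed, with 154 CPM at 8 weeks, 198 at 12 weeks and 217 in the control.

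Fau, a small subunit protein made as a fusion with a ubiquitin-like one, and Rpl36al, a paralog of Rpl36a, have names outside the rule. Fau had 49.3 CPM at 8 weeks, 53.8 at 12 weeks and 63.8 in the control, and Rpl36al had 66.2 CPM at 8 weeks, 68.4 at 12 weeks and 82.3 in the control. Their log2 ratios at 12 weeks were -0.24 for Fau and -0.26 for Rpl36al. In both the control library was the highest. Of 11 genes of ribosome rescue and quality control measured, 7 were below 0 at 8 weeks (median -0.15) and 4 at 12 weeks (median 0.09), against 51.6% and 51% of all genes kept.

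Set beside other large complexes, the ribosomal proteins lay between the mitochondrial ribosome and the proteasome at 12 weeks. Of 78 mitochondrial ribosomal protein genes, 47 were below 0 at 8 weeks (median -0.05) and 60 at 12 weeks (median -0.15), against 51.6% and 51% of all genes kept. At least 1.2-fold lower at 12 weeks were 21, against 41 of 78 cytosolic ones and 22.5% of all genes kept. The mitochondrial count of 21 is near that background. Of 38 proteasome genes kept, 35 were below 0 at 8 weeks (median -0.44) and 35 at 12 weeks (median -0.53), against the same 51.6% and 51%. The 3 others at 8 weeks were the immunoproteasome genes Psmb8, Psmb9 and Psmb10. Between 12 and 8 weeks the proteasome median was -0.04 and that of the cytosolic ribosomal proteins -0.20. With 1 library per group, the differences between these lists were not tested.

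**Figure D4:**
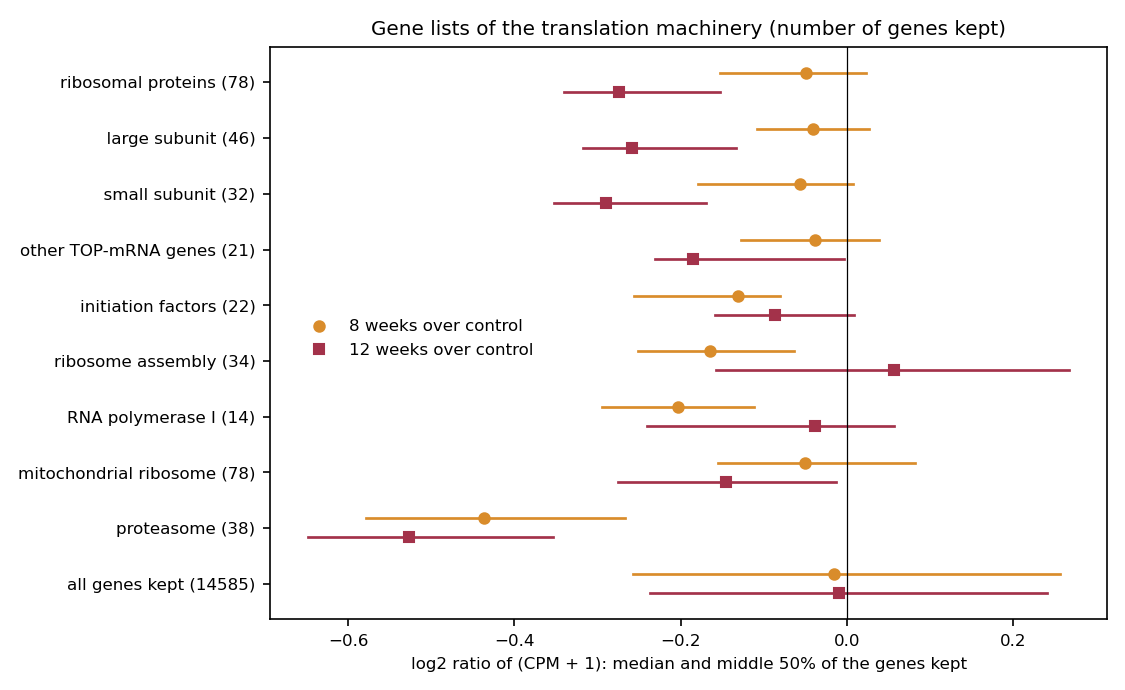
Median log2 ratio of CPM + 1 against the control (symbols) and the middle 50% of genes (lines) at 8 weeks (circles) and 12 weeks (squares) for the ribosomal proteins, other lists of the translation machinery, the proteasome and all genes kept, with the number of genes in brackets. Ribosomal proteins stand at -0.05 at 8 weeks and -0.27 at 12 weeks, and ribosome assembly genes at -0.17 and 0.06.

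Ribosomal protein mRNAs are short, and short mRNAs of other genes also lay below 0 at 12 weeks. Among other genes with a mean of at least 20 CPM, the median 12-week ratio was -0.07 for mRNAs under 700 bases (86 genes), -0.15 from 700 to under 1000 bases (144 genes), -0.12 from 1000 to under 1500 bases (468 genes) and 0.05 from 4000 bases on (1969 genes). The ribosomal protein genes of the same level had -0.29 (29 genes), -0.24 (20 genes) and -0.23 (15 genes) in the first 3 of these classes. In each of the 3 the ribosomal protein genes were lower than the other genes, by more in the shortest class. From 1500 to under 2500 bases the medians were -0.11 for 6 ribosomal protein genes and -0.08 for 1225 other genes. At 8 weeks the ribosomal protein genes under 700 bases had a median of -0.04 and the other genes 0.07. The part of mRNA length in the 12-week values was not tested.

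**Figure D5:**
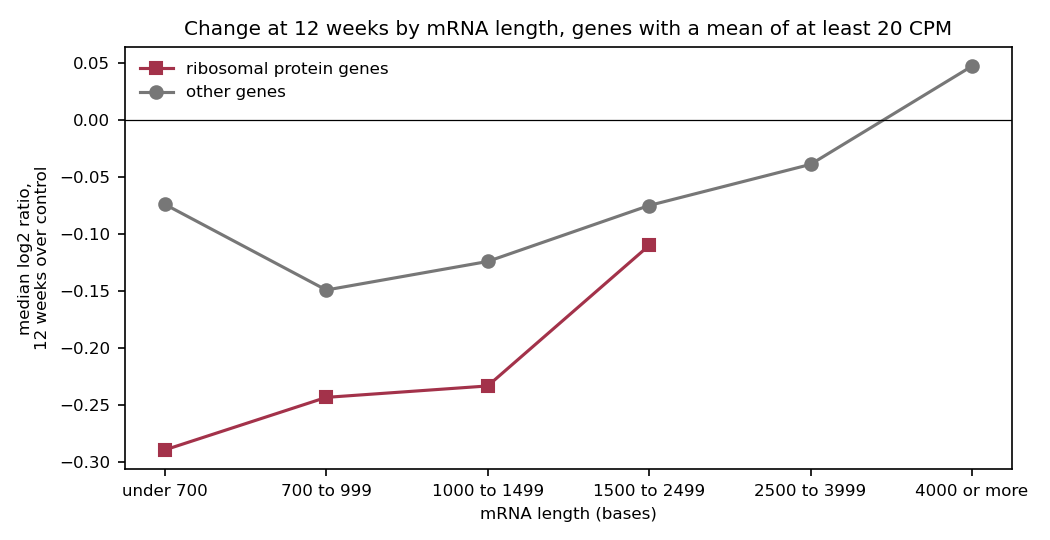
Median log2 ratio of CPM + 1 for 12 weeks over control by mRNA length in bases, for ribosomal protein genes (squares, classes with at least 5 genes) and other genes (circles) with a mean of at least 20 CPM. The ribosomal protein genes stand at -0.29, -0.24 and -0.23 in the 3 shortest classes, below the other genes at -0.07, -0.15 and -0.12.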

How the data were processed

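The authors deposited estimated counts, 1 value per gene and library with fractions and no normalization, per the file headers and the values. Whole within 0.005 were 70.2% of the values above 0 at 8 weeks, 71.5% at 12 weeks and 70.4% in the control. Tools in the submitters' processing notes are TopHat2 2.1.0 and Cufflinks 2.2.1.0, with mm9 and mm10 as builds of no stated role. Which program counted reads, and whether by strand, is not given in the sources used here. Of the 82 members, 68 had the same start and end in GENCODE M21, which is on mm10.

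Counts were rounded and scaled by TMM (edgeR 4.0.16, R 4.3.3; factors 1.005, 0.999 and 0.997 at 8 weeks, at 12 weeks and in the control). Genes at 1 CPM or more in at least 1 library were kept. Adding 1 CPM understates changes of low genes. With 1 library per group the differences are described by size (2-fold and 1.2-fold) and by exact (Clopper-Pearson) 95% intervals, tested on simulated counts. The libraries had no stated molecular identifiers, so PCR copies may be counted as separate molecules, and intervals and floors cover counting error only. The designed test assumed normalized values and gave way to this. Pseudogene copies came from BLASTN 2.17.0.

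The members and lists were chosen with earlier results of these data known. Named genes were the 6 members with the most CPM, the 5 highest and 5 lowest in each comparison, the stalk, Rpl5, Rpl11, Rps27a, paralogs, members under the filter and up to 4 called or else the most abundant genes of each other list, of which not all are printed. Genes named for their copies or overlaps, and Rpl37 and Rps13 with their promoters, were chosen after their values were seen. Alternatives were other scalings (with DESeq2 1.42.0 size factors), pseudocounts, filters, thresholds and member sets. Statistics used Python 3.11.15 with numpy, pandas and scipy.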

Additional observations from a re-analysis of the deposited data

How the results depend on the processing

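The 12-week median log2 ratio of the members lay between -0.349 and -0.246 under every alternative run, the 8-week median between -0.060 and -0.004, and the median of 12 over 8 weeks between -0.223 and -0.175. The number 2-fold higher at 8 weeks was 1 with library totals, DESeq2 size factors, the upper quartile, totals without the 10 most counted genes or 0.1 CPM added, each time Rps2. With a threshold of 1.5-fold, 1 member was higher at 8 weeks and 1 at 12 weeks. With 1.2-fold, 4 were higher and 7 lower at 8 weeks, 2 higher and 41 lower at 12 weeks, and 22 lower between 12 and 8 weeks. The log2 ratio of summed counts at 8 weeks (-0.050) was -0.036 with DESeq2 size factors, -0.035 with the upper quartile, -0.007 without the 10 most counted genes and -0.070 without members that have many copies. At 12 weeks (-0.227) it was -0.199 without the 10 most counted genes and -0.255 without members that have many copies. Between 12 and 8 weeks (-0.177) it was -0.191 with the upper quartile and -0.192 without the 10 most counted genes. Over the 8 members with whole counts the sum stood at 0.033 at 8 weeks, -0.281 at 12 weeks and -0.314 between them, and 3, 4 and 4 of the 5 kept were below 0, since that set holds fewer genes. For the other shifts the cause was not tested. Of 1374 checks of single genes and subunits, 9 moved by at least the distance from the middle of the counting interval to its end. For subunits the median of that distance over the members was used. With all homologous pseudogene entries added, 6 moved. Rps2 went to 0.15 and -0.01 at 8 and 12 weeks, and Rps26 to -0.18 at 8 weeks. Rpl30 went to 0.23 and Rplp0 to -0.24 at 12 weeks, and Rplp0 to -0.16 between 12 and 8 weeks. The other 3 moved when only pseudogene entries named -ps were added. Adding all homologous pseudogenes, and leaving out overlapped members or those with many copies, were chosen after seeing the data. No paired analysis was possible because each group has 1 library. At this depth no difference was detectable for Rpl29 and Rps4l, the members kept with 50 counts or fewer.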
